A study of Mus musculus with 12 samples.

Results

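The 45 genes described here are developmental transcription factor genes of the homeobox and Pax classes that lie outside the Hox clusters. They were chosen by name, from 11 families, and not by their methylation. They comprise 8 Pax genes (Pax1, Pax2, Pax3, Pax5 to Pax9), 8 Lhx genes (Lhx1 to Lhx6, Lhx8 and Lhx9), 6 Dlx genes (Dlx1 to Dlx6), 6 Irx genes (Irx1 to Irx6), 5 Nkx genes (Nkx2-1, Nkx2-2, Nkx2-5, Nkx6-1 and Nkx6-2), the sine oculis genes Six2, Six3 and Six6, Emx1 and Emx2, En1 and En2, Evx1 and Evx2, Msx1 and Msx2, and Gsc. They are 45 of the 30073 genes with a methylation level in at least 1 library. Their promoters, untranslated regions (UTRs), exons and introns gave 199 levels, of which 189 were present in all 12 libraries. A further 106 CpG islands and 208 island shores lay within the genes or up to 2000 bp away, and 95 islands and 179 shores had a level in all 12 libraries. Promoter levels were listed for 41 genes. Pax8, Dlx5, Msx2 and Nkx2-5 had none, and the Evx1 promoter had a level in 1 library only.

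Homeobox proteins bind DNA through a homeodomain and Pax proteins through a paired domain, and both classes set the identity of tissues in the embryo. Pax genes act in the kidney, eye, thyroid, muscle and B cells, Lhx genes in the brain, pituitary and gonad, Dlx genes in the forebrain, face and limb, and Irx and Nkx2-5 in the heart. Genes of these classes usually lie in wide clusters of CpG islands that Polycomb group proteins mark in stem cells, and such islands are mostly free of DNA methylation. Primordial germ cells (PGCs), from which oocytes and sperm arise, lose most DNA methylation while they migrate to and settle in the gonad.

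The assay was reduced representation bisulfite sequencing (RRBS), which cuts DNA at CCGG with MspI and so reads mainly CpG-rich fragments. The 12 libraries formed 6 groups of 2, all from C57BL6 mice. They were female embryonic stem cells (ESC), parthenogenetic embryonic stem cells (pESC), PGCs taken on embryonic day 9.5 (E9.5) or 12.5 (E12.5), and PGC-like cells (PGCLCs) made from ESCs or from pESCs. Parthenogenetic cells come from an activated oocyte and have no paternal genome. According to the study's methods both kinds of stem cell were made from mice carrying an Actin-GFP transgene and were kept on feeder cells, and the PGCs came from female embryos. PGCs were sorted on SSEA1 and CD61 by flow cytometry or on SSEA1 with magnetic beads, and PGCLCs on both antigens. PGCLC induction ran through epiblast-like cells, made with bFGF and activin A in 2 days, followed by BMP4, SCF, EGF and LIF for 4 days. The study derived several lines of each kind. The labels do not say whether the 2 libraries of a stem cell group, or the PGCLCs, came from 1 line. In what follows, a stem cell line means 1 of the kinds, ESC or pESC. The methods call RRBS replicates biological, and the labels do not say whether 2 libraries of a group came from separate cultures or embryo pools.

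Levels are the share of a feature's CG calls that were methylated, given here in percent, and differences are in percentage points. The deposited levels carry no read counts, and depth is unknown. A feature was called different when its adjusted p, from limma on log odds with Benjamini-Hochberg adjustment over the features of all genes, was below 0.05 and the group means lay at least 10 points apart. Over all common features the mean level of a library ran from 21.3% to 36.5%, with E9.5 PGCs highest. The 2 ESC libraries stood apart from each other: 26 of 179 member shores differed by at least 10 points between them, against 10 between the pESC libraries and 1 between the E9.5 libraries, and replicate 1 was the higher at all 26. Promoters of maternally imprinted genes checked the labels. Sgce, Peg10, Mest and Zrsr1 had mean levels of 1.78% to 6.74% in ESCs and 36.8% to 46.2% in pESCs, and Snrpn had 39.6% in ESCs and 83.0% in pESCs. Cells with both parental genomes usually carry these imprints on the maternal allele alone, and the ESC levels of the first 4 genes were far below that state. ESC-PGCLCs had 33.3% to 35.6% at the same promoters, and whether they came from the same line as the ESC libraries is not stated. The pESCs were above the ESCs at all 5 promoters, as the labels imply, but the ESC levels at these 4 are low for a line with both parental genomes. The pESC levels at these 4 were also low for a line without a paternal genome. They lay below the 48.8% to 54.4% of E9.5 PGCs, so the check gives the direction between the lines only. The labels were kept as given, and the reason was not tested. Promoters of the germline genes Dazl, Ddx4, Mael, Sycp3, Tex101 and Hormad1 lay between 57.4% and 88.1% in E9.5 PGCs and between 37.3% and 65.6% in E12.5 PGCs.

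The starts of these genes are rich in CpG sites. From 250 bases before to 50 after a RefSeq start of transcription, 42 promoters of 35 members held a median of 19.5 CpG sites, from 4 to 40, against 7 over 32851 mouse promoters. The motif CCGG, which reads the same on both strands and is the MspI site, was present in 81.0% of the members' windows and in 52.8% of all windows. A set of 6 stretches (GRCm38), taken from regions named in the results that follow, is printed with each CG in capitals. The first pair are the RefSeq promoters of the members with the highest and, among those with a sequence in RefSeq, the lowest promoter methylation, at chr2:26208299-26208498 and chr2:71546755-71547004, both on the minus strand.
Lhx3 promoter: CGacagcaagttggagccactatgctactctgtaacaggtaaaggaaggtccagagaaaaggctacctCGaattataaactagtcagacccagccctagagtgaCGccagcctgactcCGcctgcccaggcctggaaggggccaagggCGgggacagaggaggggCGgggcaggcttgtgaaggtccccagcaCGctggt
Dlx2 promoter: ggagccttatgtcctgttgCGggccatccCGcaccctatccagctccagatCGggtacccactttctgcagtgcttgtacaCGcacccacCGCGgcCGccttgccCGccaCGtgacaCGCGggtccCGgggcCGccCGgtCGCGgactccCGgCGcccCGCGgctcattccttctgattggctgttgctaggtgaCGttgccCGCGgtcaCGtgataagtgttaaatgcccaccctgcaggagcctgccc
The Lhx3 stretch holds 7 CG in 200 bases and no CCGG, and the Dlx2 stretch 24 CG in 250 bases with 3 CCGG.

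The next pair come from CpG islands inside members that carried methylation in stem cells and little in germ cells, at chr1:138841571-138841820 and chr17:26841125-26841324, both on the minus strand.
Lhx9 island: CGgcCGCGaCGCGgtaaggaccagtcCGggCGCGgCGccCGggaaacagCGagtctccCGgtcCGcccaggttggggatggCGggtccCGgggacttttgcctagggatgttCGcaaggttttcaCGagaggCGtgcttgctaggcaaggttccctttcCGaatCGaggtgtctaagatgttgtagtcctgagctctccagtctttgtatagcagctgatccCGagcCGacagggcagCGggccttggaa
Nkx2-5 island: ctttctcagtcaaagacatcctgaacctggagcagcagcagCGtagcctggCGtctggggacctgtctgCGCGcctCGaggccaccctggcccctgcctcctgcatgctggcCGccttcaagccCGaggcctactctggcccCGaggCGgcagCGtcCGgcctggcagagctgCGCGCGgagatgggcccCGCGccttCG
They hold 23 CG in 250 bases and 17 CG in 200 bases. The last pair are parts of island shores, the 2000 bp beside an island, that were methylated in stem cells and lower in germ cells, at chr19:59460866-59461115 and chr8:92364851-92365100, both on the plus strand.
Emx2 shore: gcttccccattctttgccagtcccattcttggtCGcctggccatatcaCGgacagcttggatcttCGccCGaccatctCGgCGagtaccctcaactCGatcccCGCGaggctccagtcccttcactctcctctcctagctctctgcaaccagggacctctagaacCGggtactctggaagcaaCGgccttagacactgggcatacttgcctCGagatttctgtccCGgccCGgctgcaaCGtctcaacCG
Irx5 shore: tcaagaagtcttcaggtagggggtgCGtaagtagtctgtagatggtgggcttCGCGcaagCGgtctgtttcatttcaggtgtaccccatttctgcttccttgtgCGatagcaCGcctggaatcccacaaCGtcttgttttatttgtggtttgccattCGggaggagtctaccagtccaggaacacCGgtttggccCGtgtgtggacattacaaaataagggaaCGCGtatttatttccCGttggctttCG
They hold 16 and 14 CG in 250 bases, fewer than the Dlx2 promoter or the Lhx9 island. The levels given for these regions are those of the whole feature, not of the stretch printed. Which of the printed CG sites were read is not known.

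Member promoters were almost free of methylation in every group. Over 40 promoters ESCs had a median of 3.45% and pESCs of 4.28%. In embryonic PGCs it was 2.64% at E9.5 and 2.44% at E12.5, and PGCLCs made from ESCs or pESCs had 2.66% and 2.80%. Over all promoters the medians were, in this order, 3.18%, 3.34%, 5.17%, 3.87%, 4.29% and 4.30%, so that member promoters stood above other promoters by less than 1 point in both stem cell lines and below them in all 4 germ cell groups. Member islands had medians of 2.01% to 2.26% in the 6 groups, against 1.82% to 2.10% over all islands. Of 40 member promoters, 27 in ESCs (67.5%) and 24 in pESCs (60%) were below 5%, near the 58.6% and 57.7% of all promoters. In the germ cell groups between 36 and 37 were (90% to 92.5%), against 49.5% to 54.5% of all promoters.

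The lowest promoters, ranked by their highest group mean, were those of Dlx2, a factor of forebrain interneurons, En2, which patterns the midbrain and hindbrain, and Irx5, an Iroquois factor of heart and retina. The Dlx2 promoter lay between 1.42% and 2.45% in the 12 libraries. The En2 promoter ranged from 0.719% to 2.62% and the Irx5 promoter from 1.29% to 2.00%. For Dlx2 and En2 both extremes were pESC libraries, so the whole range lay within 1 group. Only 1 promoter reached a group mean of 20%. Lhx3, which encodes a LIM homeodomain factor of the pituitary and of motor neurons, had promoter levels of 24.0% and 19.3% in the ESC libraries and of 20.4% and 22.3% in the pESC libraries. PGCLCs from ESCs had 9.75% and 8.44% and those from pESCs 8.58% and 8.67%. Embryonic PGCs had 8.35% and 7.76% at day 9.5 and 5.07% and 4.56% at day 12.5. All 4 stem cell libraries were above all 8 germ cell libraries. The Lhx3 promoter was 13.6 points lower in E9.5 PGCs than in ESCs (log2 odds -1.55, SE 0.27, adjusted p 0.0134 by limma). In bulk DNA a lower level cannot be told apart from fewer cells that carry the methylation.

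**Figure D1:**
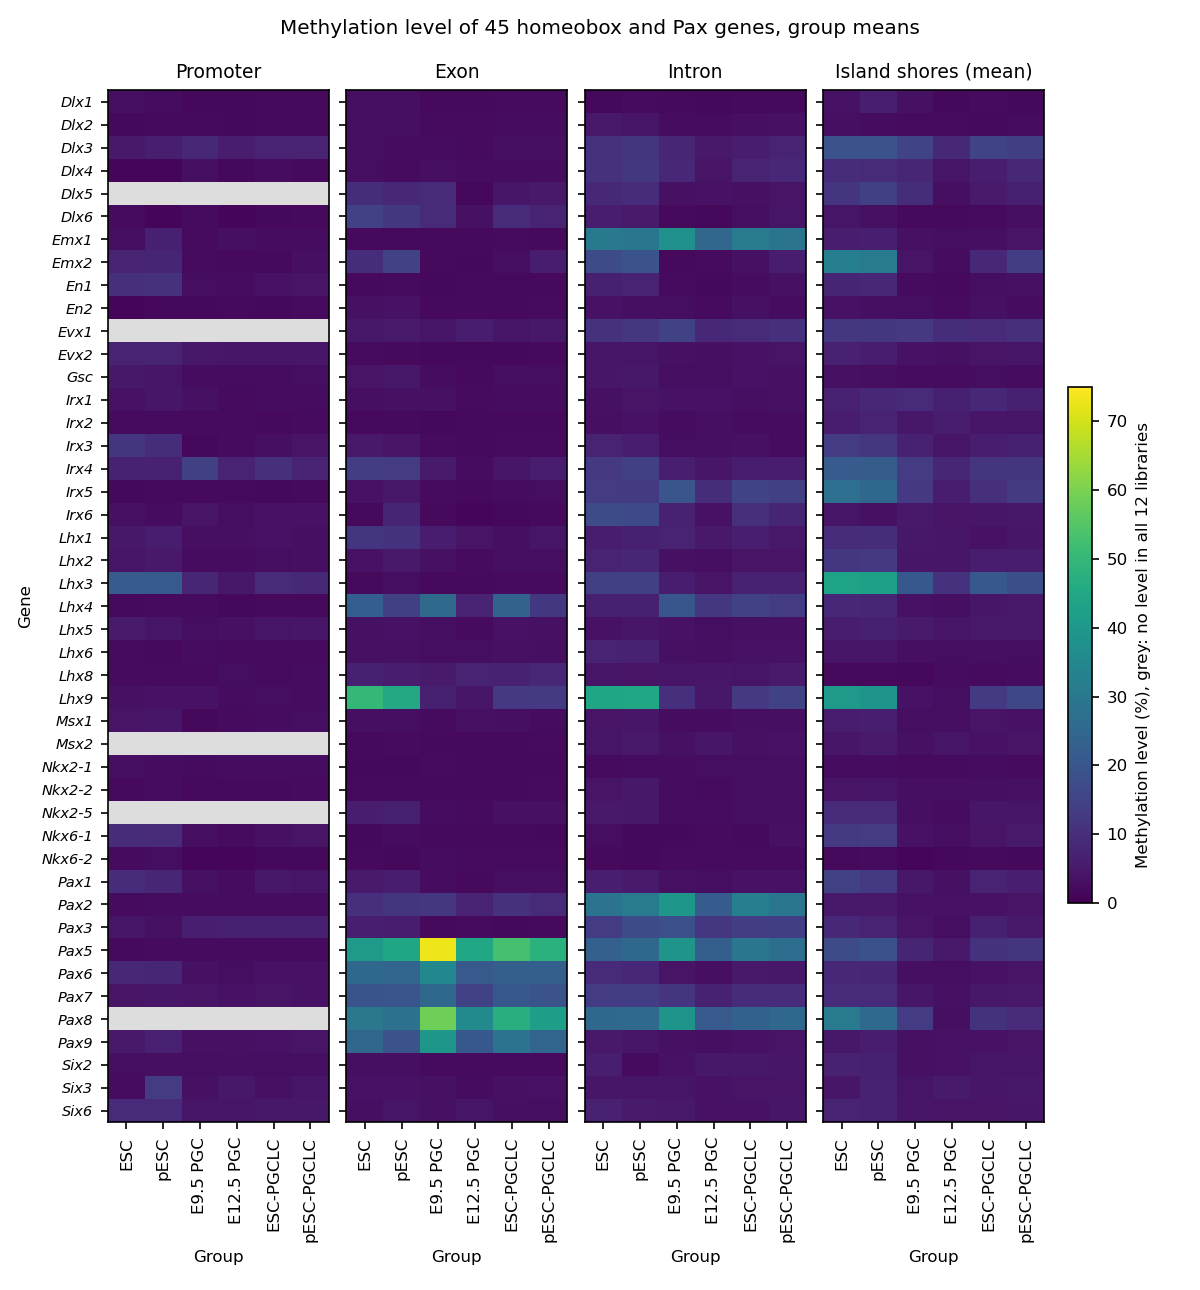
Methylation level in percent (colour, dark is low, grey where a level was not listed in all 12 libraries) of the promoter, exons, introns and mean of the island shores of each of the 45 genes (rows, by name) in the 6 groups (columns, means of 2 libraries). Nearly all promoters are dark in every group, with Lhx3 above 20% in both stem cell lines, while exons of Lhx9, Pax5 and Pax8 and shores of Lhx3, Lhx9 and Emx2 are brighter.

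Gene bodies of the members were low as well. Over 45 genes the median exon level was 3.53% in ESCs and 4.23% in pESCs, and over all genes 9.43% and 10.4%. In E9.5 and E12.5 PGCs it was 2.52% and 2.19%, against 23.8% and 14.1%, and in PGCLCs from ESCs and pESCs 2.82% and 2.76%, against 16.7% and 15.9%. Introns of members had medians of 6.54% in ESCs and 3.67% in E9.5 PGCs, against 24.4% and 48.2% over all genes. The contrast was widest at 3' UTRs, with 7.18% in ESCs and 4.56% in E9.5 PGCs over 21 members against 41.0% and 69.8% over all genes. Whereas the median gene was most methylated in E9.5 PGCs in each of these classes, the median member was then lower than in either stem cell line. This was not particular to the members. From ESCs to E9.5 PGCs, median introns went from 7.63% to 3.80% in other homeobox and Pax genes and from 4.20% to 3.59% in Hox genes. Median 3' UTRs went from 7.05% to 4.41% and from 8.54% to 3.18%. Median exons went from 2.65% to 2.59% in the other homeobox and Pax genes, but from 2.52% to 2.79% in Hox genes.

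Within a gene, exons, introns and shores were compared with the promoter of the same gene in the 40 members that had them in all libraries. Exons were 0.180 points above the promoter (mean over groups of the median over genes, ± 0.15 pooled SD of replicates). This median difference was above 0 in 11 of 12 libraries. By group means, exons were above the promoter in only 18 to 23 of the 40 genes. Introns were 1.07 ± 0.310 points above the promoter and shores 1.47 ± 0.258 points, in 12 of 12 libraries each. The shore difference was largest in stem cells, at 2.54 points in ESCs and 2.58 in pESCs. It was 0.961 and 1.16 points in PGCLCs of these origins, and 0.933 and 0.637 points in E9.5 and E12.5 PGCs. The intron difference ran from 1.97 points in ESCs to 0.515 in E12.5 PGCs. A few genes carry much more than the median: as means over members the 3 differences were 3.20, 3.97 and 3.08 points.

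**Figure D2:**
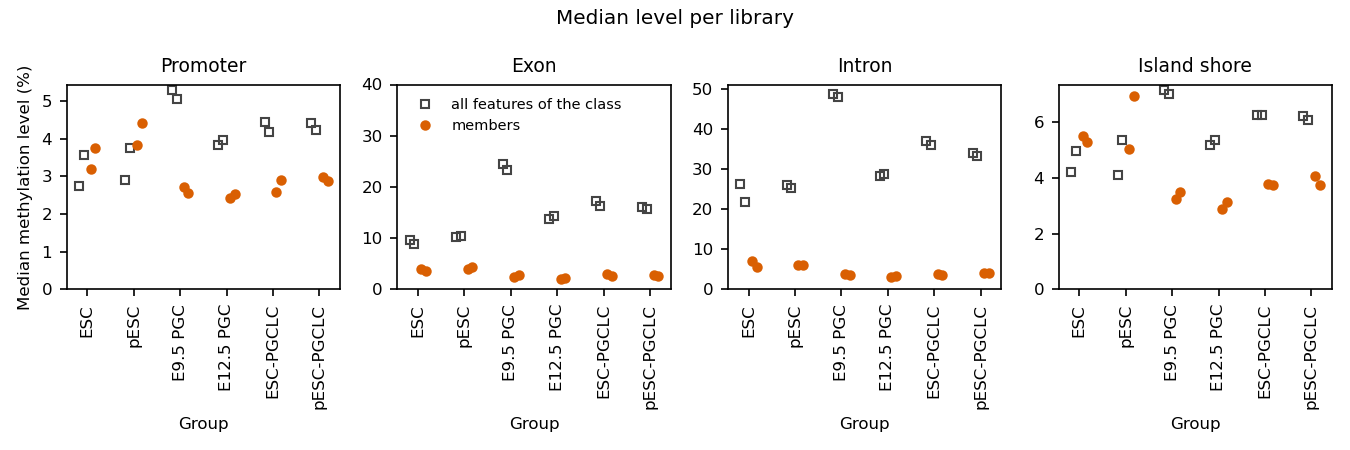
Median methylation level in percent (vertical axis, a scale for each panel) over promoters, exons, introns and island shores in each of the 12 libraries, by group (horizontal axis); filled points are the members and open squares all features of the class, 1 of each per library. Medians over all exons and introns peak in E9.5 PGCs, while the members' medians stay below 10% and are lower in the germ cell groups than in the stem cell lines.

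Of the 40 members, 19 stayed below 10% in promoter, exons and introns in all 6 groups and 9 stayed below 5%. Such genes were not counted over all genes, so whether these shares are unusual is not known. The 9 were the ventral forebrain, neural tube and pancreas factors Nkx2-1, Nkx2-2 and Nkx6-2, the Iroquois genes Irx1 and Irx2, Dlx1, En2, Msx1, which acts in the limb and tooth, and Gsc, a gene of the gastrula organizer. By family, exon group means stayed between 1.50% and 6.72% in Six2, Six3 and Six6, the Nkx, En, Msx and Evx genes and Gsc. They reached 13.5% in Irx, 14.4% in Dlx, 14.6% in Emx, 49.9% in Lhx and 73.0% in Pax genes. In Lhx the highest exon value was that of Lhx9 in ESCs, and in Pax that of Pax5 in E9.5 PGCs.

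The comparisons set parthenogenetic stem cells and their PGCLCs beside ordinary stem cells and PGCs of the embryo. Between pESCs and ESCs, none of 486 member features tested was called different (percent called over all features 0), and 6 had an unadjusted p below 0.05. Member promoters differed by a median of 0.206 points and member shores by 0.0159 points. The widest difference was at a shore of Six3 (chr17:85618636-85620637), a gene of forebrain and eye, named here after its values were seen. It had 39.7% and 9.68% in pESCs and 0% and 9.43% in ESCs, so the difference of 19.97 points rested on 1 pESC library (adjusted p 1.0). In simulated data of this design none of 67 features shifted by 30 points was called when 200 were shifted in all, so the count of 0 has little weight for a difference limited to few genes.

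Between E9.5 PGCs and ESCs, more member features fell than rose, whereas over all features rises prevailed. Of 467 member features tested, 33 features in 14 genes fell (7.07%, against 0.667% of all features) and 6 features in 5 genes rose (1.28%, against 30.7%). Shores made up 25 of the 33, out of 181 shores tested, against 1.71% of all shores. Of all islands and all shores 8.71% and 26.6% rose, and of repeats 38.1%. The median difference over member shores was -1.72 points, against 2.01 over all shores, and over member introns -1.62 against 14.9. By family, the features that fell were 15 of Lhx genes, 8 of Pax genes, 5 of Emx2, 3 of Irx3 and Irx5, and 1 each of En2 and Nkx2-5. No feature of the Dlx, Evx or Msx genes, of Gsc or of Six2, Six3 and Six6 was called.

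The gene with the largest loss was Lhx9, a LIM homeodomain gene needed for the formation of the gonad. Its shore at chr1:138839497-138841497, which covers a coding exon 8080 bp from the gene start, had 76.6% and 67.1% in the ESC libraries and 76.2% and 70.0% in the pESC libraries. Embryonic PGCs had 6.22% and 2.27% at day 9.5 and 2.61% and 3.33% at day 12.5. PGCLCs had 30.7% and 22.3% when made from ESCs and 41.2% and 35.4% when made from pESCs. Stem cell libraries were highest, embryonic PGCs lowest and PGCLCs between, with no overlap among these 3 kinds. The difference between E9.5 PGCs and ESCs was -67.6 points (log2 odds -5.65, SE 0.49, adjusted p 0.00189 by limma). The neighbouring island at chr1:138841499-138842069, part of which is printed among the sequences, lies 375 bases from a RefSeq start of transcription within the gene. It had 69.9% and 33.5% in ESC and 59.1% and 39.2% in pESC libraries. All 4 embryonic PGC libraries lay between 1.90% and 2.66%, and the 4 PGCLC libraries between 8.26% and 12.4%. It was 49.4 points lower in E9.5 PGCs than in ESCs (adjusted p 0.00754), although the ESC libraries lay 36.4 points apart. Another Lhx9 shore, at chr1:138841603-138843603, overlaps this island and had nearly its levels, with 70.0% and 34.4% in ESC and 58.0% and 39.0% in pESC libraries. In it PGCs had 2.49% and 2.35% at day 9.5 and 2.21% and 2.92% at day 12.5, and PGCLCs 10.9% and 12.1% from ESCs and 8.82% and 13.4% from pESCs (E9.5 PGCs against ESCs -49.8 points, adjusted p 0.00707).

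The exons and introns of Lhx9 as a whole kept the same order. Exons had 66.3% and 33.6% in ESCs, 54.5% and 36.2% in pESCs, 7.34% and 6.12% in PGCs of E9.5, and 4.31% and 4.65% in those of E12.5. Exon levels in PGCLCs were 12.4% and 12.3% from ESCs and 9.93% and 15.5% from pESCs. The introns, whose ESC libraries lay close together, had 46.9% and 41.1% in ESCs and 47.4% and 42.6% in pESCs. They had 9.80% and 10.2% in E9.5 and 5.06% and 4.76% in E12.5 PGCs. PGCLCs had intron levels of 12.6% and 12.2% from ESCs and of 15.1% and 14.0% from pESCs. Exon, intron, island and shores share DNA and are not separate evidence.

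Emx2, a factor of the cerebral cortex and the urogenital tract, behaved alike. Its 3' UTR had 73.9% and 43.2% in ESC and 63.0% and 55.8% in pESC libraries. It had 6.18% and 2.94% in PGCs of E9.5, and 4.37% and 0.397% in those of E12.5. In PGCLCs it had 10.7% and 11.1% from ESCs and 27.1% and 23.1% from pESCs. The difference between E9.5 PGCs and ESCs was -54.0 points (log2 odds -4.72, SE 0.69, adjusted p 0.00785). The shore at chr19:59459984-59461985, over a coding exon 2612 bp into the gene, had 44.5% and 24.8% in ESC and 42.7% and 28.0% in pESC libraries. It had 1.06% and 3.27% in E9.5 PGCs, with a difference from ESCs of -32.5 points (adjusted p 0.00675), and 0.993% and 1.33% in E12.5 PGCs. PGCLCs had 9.84% and 11.1% when made from ESCs and 19.4% and 18.0% when made from pESCs. In both Emx2 features every stem cell library was above every germ cell library.

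A shore within Irx5 showed the same order. This shore at chr8:92363565-92365565, in an intron 6940 bp from the gene start, had 59.8% and 34.4% in ESC and 47.3% and 40.1% in pESC libraries. PGCs had 11.1% and 9.20% at day 9.5 and 4.00% and 7.57% at day 12.5, and PGCLCs 12% and 12.2% from ESCs and 15.6% and 16.9% from pESCs. The difference between E9.5 PGCs and ESCs was -37.0 points (adjusted p 0.0152). Outside the naming rule, the Nkx2-5 island (chr17:26841125-26841502) of which a stretch is printed had 16.1% and 8.18% in ESCs and 0.616% and 2.31% in E9.5 PGCs.

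Other features that fell, given after their values were seen, include a pair of Lhx3 shores. A shore of Lhx3 (chr2:26206900-26208901), over the gene start and the promoter printed, had 53.6% and 27.2% in ESCs and 8.04% and 6.69% in E9.5 PGCs, a difference of -33.0 points (adjusted p 0.0172). Another, over a coding exon 4024 bp into the gene, had 53.9% and 39.2% in ESCs and 20.7% and 25.7% in E9.5 PGCs (-23.3 points, adjusted p 0.0361). The En2 3' UTR had 27.4% and 15.4% in ESCs and 2.56% and 4.17% in E9.5 PGCs, whereas the En2 promoter stayed below 3% throughout. Shores of Lhx1, Lhx2, Lhx4, Irx3, Pax1, Pax6 and Pax7 fell by between 10 and 20 points. Of these, 2 Pax6 shores share the same values and count as 2.

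The features that rose from ESCs to E9.5 PGCs included the exons of Pax5, which drives B cell identity, the exons of Pax8, a factor of thyroid and kidney, and the 3' UTRs of Pax6, of the eye, and Pax7, of muscle progenitors. Pax5 exons had 42.1% and 38.7% in ESCs and 74.7% and 71.4% in E9.5 PGCs (32.6 points, log2 odds 1.96, SE 0.26, adjusted p 0.00611). Pax8 exons had 34.5% and 25.1% in ESCs and 58.3% and 58.6% in E9.5 PGCs (28.7 points, adjusted p 0.0150). The Pax7 3' UTR had 51.7% and 33.3% against 71.4% and 72.9% (29.6 points, adjusted p 0.0288), and the Pax6 3' UTR 59.5% and 47.5% against 73.1% and 75.9% (21.0 points, adjusted p 0.0354). In pESCs these features stayed near the ESC levels. The pESC libraries had 46.7% and 41.8% at the Pax5 exons, 29.2% and 26.9% at the Pax8 exons, 43.6% and 41.3% at the Pax7 3' UTR and 53.8% and 52.8% at the Pax6 3' UTR. In PGCLCs made from ESCs the Pax8 exons had 48.6% and 45.6%, the Pax7 3' UTR 56.7% and 55.2% and the Pax6 3' UTR 65.3% and 68.2%. In those made from pESCs the same features had 43.1% and 41.3%, then 53.8% and 52.2%, and 56.9% and 56.1%. In all 3 the PGCLC libraries lay below the E9.5 libraries and above the pESC libraries.

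**Figure D3:**
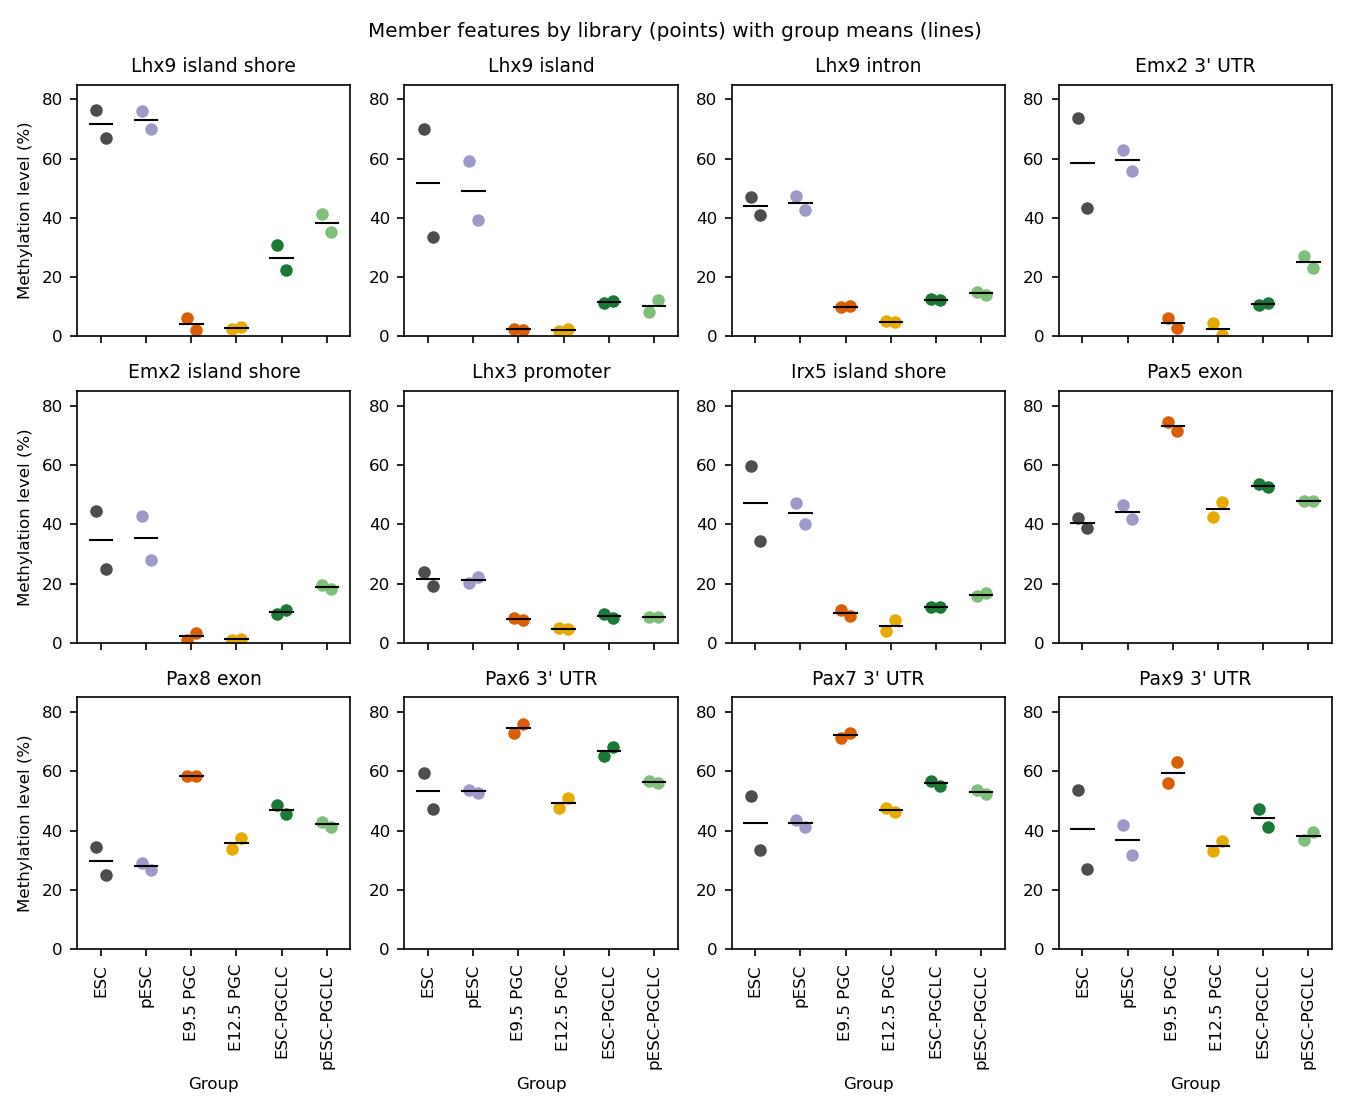
Methylation level in percent (vertical axis) of 12 member features in the 6 groups (horizontal axis); each point is 1 library and the line is the mean of 2. Lhx9, Emx2, Lhx3 and Irx5 features are high in both stem cell lines and low in PGCs, while Pax5 and Pax8 exons and the Pax6 and Pax7 3' UTRs are highest in E9.5 PGCs.

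These counts depend on 1 library and on the scale. Without ESC replicate 2, the lower of the ESC libraries, 61 member features were called in place of 39 (6 higher, 55 lower), and without ESC replicate 1 it was 28 (11 higher, 17 lower). When each library was centred on its median over all features, which was 34.0% to 35.1% in E9.5 PGCs and 11.2% to 13.2% in ESCs, no member feature rose and 451 fell, since features near 0 in both groups then count as a loss against the rest. Over all features centring called 61.6%, of which 10.7% were higher. On untransformed levels 5 member features rose and 5 fell, and 21.7% of all features were called, 98.6% of them higher. Without ESC replicate 1 the share called over all features rose, and without ESC replicate 2 it stayed about the same.

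Induction of PGCLCs also lowered member features. From ESCs to ESC-PGCLCs, 28 of 468 member features, in 13 genes, fell (5.98%, against 0.899% of all features), and 1, the exons of Pax8, rose by 17.3 points (0.214%, against 13.7%; adjusted p 0.0282). Shores gave 21 of the 28, out of 180, against 1.77% of all shores. From pESCs to pESC-PGCLCs, 20 features in 11 genes fell (4.27%, against 0.746%) and none rose (8.91% of all features rose). Of 180 shores, 12 fell, against 1.43% of all shores. The Lhx9 shore fell by 45.3 points in ESC-PGCLCs (adjusted p 0.00123) and fell by 34.8 points in pESC-PGCLCs (adjusted p 0.00616). The Emx2 3' UTR fell by 47.6 points in ESC-PGCLCs (adjusted p 0.00416) and fell by 34.3 points in pESC-PGCLCs (adjusted p 0.0476). The Lhx3 promoter fell by 12.6 points (adjusted p 0.00469) and, from pESCs, fell by 12.7 points (adjusted p 0.00528).

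Irx4, a factor of the heart ventricle, was among the largest losses on induction. Its shore at chr13:73266475-73268475, over a coding exon 6996 bp from the gene start, had 67.8% and 35.2% in ESCs, against 12.1% and 20.4% in their PGCLCs, and 57.2% and 40.7% in pESCs, against 18.0% and 14.9% in theirs. It fell by 35.3 points in ESC-PGCLCs (adjusted p 0.0377). The ESC libraries lay far apart here, and of 15 other settings this call held in 6 and was lost in 9. In embryonic PGCs this shore had 15.9% and 21.6% at day 9.5 and 5.81% and 9.81% at day 12.5. The Irx4 3' UTR was lower in stem cells, with 32.1% and 18.9% in ESC and 26.3% and 23.0% in pESC libraries, 11.2% and 14.7% in PGCLCs from ESCs and 18.0% and 19.2% in those from pESCs. Its levels were 20.1% and 13% in E9.5 and 5.94% and 8.44% in E12.5 PGCs.

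The comparison of E9.5 PGCs with ESCs and that of pESC-PGCLCs with pESCs share no library, whereas the comparison of ESC-PGCLCs with ESCs shares the ESC libraries with the first of these. The fit of pESC-PGCLCs against pESCs also takes its spread from the ESC libraries, so these comparisons are not independent. Of the 33 member features that fell from ESCs to E9.5 PGCs and the 20 that fell from pESCs to pESC-PGCLCs, 17 were the same, which is 51.5% and 85% of each set, and 9 genes were the same, out of 14 and 11. Over all features, 487 of the 926 and 1021 that fell were the same, which is 52.6% and 47.7%. The 17 shared member features include 5 of Lhx9, 3 of Lhx3 and 2 of Emx2, parts of which share DNA.

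Single libraries weigh on these counts. For ESC-PGCLCs against ESCs, 19 features were called without ESC replicate 1 (4 of them higher), 53 without ESC replicate 2, 12 without ESC-PGCLC replicate 1 and 11 without ESC-PGCLC replicate 2, in place of 29. For pESC-PGCLCs against pESCs, 4 were called without pESC replicate 1, 12 without pESC replicate 2, 13 without ESC-PGCLC replicate 2, 4 without pESC-PGCLC replicate 1 and 2 without pESC-PGCLC replicate 2, in place of 20. Centring left no rise and 421 and 305 falls.

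**Figure D4:**
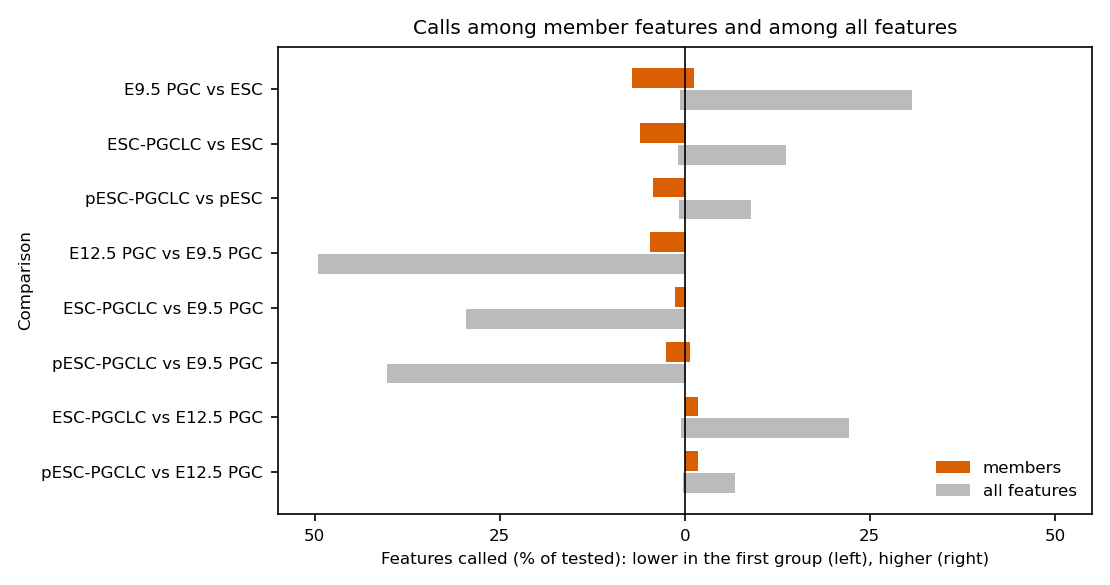
Features called lower in the first-named group (left of 0) or higher (right of 0), in percent of those tested (horizontal axis), for 8 comparisons (vertical axis), with 1 bar for the members and 1 for all features. The members' bars exceed those of all features among the losses from stem cells to PGCs and PGCLCs. They are far shorter among the losses from E9.5 PGCs. All features include repeats, which the members lack.

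From E9.5 to E12.5 PGCs, when 49.6% of all features fell and 0.035% rose, 22 of 466 member features, in 14 genes, fell (4.72%) and 1 rose (0.215%). The median difference over member exons was -0.413 points against -9.46 over all exons, and over member introns -0.510 against -16.6. Among all islands and all shores 6.43% and 30% fell, and among repeats 84.8%. Members below 5% at E9.5 could not fall by the 10 points a call needs. Of the 22, 12 belonged to 6 Pax genes, 3 each to Lhx, Dlx and Irx genes and 1 to Emx. Pax5 exons had 42.5% and 47.5% at E12.5 and had fallen by 28.0 points (log2 odds -1.69, SE 0.14, adjusted p 0.000132). The Pax7 3' UTR, with 47.6% and 46.3%, had fallen by 25.2 points (adjusted p 8.39e-05), and the Pax6 3' UTR, with 47.8% and 50.9%, had fallen by 25.1 points (adjusted p 0.000138). Pax9 acts in the tooth and thymus. Its 3' UTR went from 56.0% and 63.1% to 33.1% and 36.4% (adjusted p 0.00091), and its exons from 34.5% and 44.9% to 21.2% and 20.3%, so that they fell by 19.0 points (adjusted p 0.0103). The stem cell libraries were spread widely here, with 53.8% and 27.1% (ESC) and 41.9% and 31.8% (pESC) at the 3' UTR and 32.4% and 17.0% (ESC) and 17.7% and 20.9% (pESC) at the exons. PGCLCs from ESCs had 47.3% and 41.1% at the 3' UTR and 22.9% and 34.0% at the exons, and those from pESCs 37.0% and 39.5%, then 24.1% and 24.6%.

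Pax8 exons, with 34.0% and 37.7% at E12.5, fell by 22.6 points (adjusted p 0.000211). The Pax8 introns went from 41.0% and 36.6% to 19.9% and 21.7% and fell by 18.0 points (adjusted p 0.000323). They had 29.2% and 21.7% in ESC and 29.1% and 22.2% in pESC libraries, and 23.0% and 23.6% in PGCLCs from ESCs and 26.4% and 24.5% in those from pESCs. E9.5 PGCs were the highest group at both.

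Pax2, a kidney gene, gave intron levels of 40.9% and 38.4% in the younger and 21.8% and 22.0% in the older PGCs, and these fell by 17.8 points (adjusted p 0.000219). The Pax2 introns had 28.7% and 28.5% in ESC and 29.7% and 31.3% in pESC libraries, and 33.2% and 31.9% in PGCLCs from ESCs and 30.8% and 28.0% in those from pESCs, so E9.5 PGCs were highest and E12.5 PGCs lowest. Pax6 exons went from 33.8% and 36.3% to 19.8% and 22.1%. They had 26.2% and 24.1% in ESCs, against 23.2% and 21.9% in their PGCLCs, and 23.7% and 25.3% in pESCs, against 25.4% and 19.7% in theirs.

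The exons of Lhx4, which acts with Lhx3 in the pituitary, went from 24.3% and 27.8% to 6.99% and 8.12% (-18.5 points, log2 odds -1.98, SE 0.16, adjusted p 0.000129). In the other groups the Lhx4 exons had 37.3% and 7.43% in ESCs, against 22.1% and 25.9% in their PGCLCs, and 20.3% and 8.12% in pESCs, against 12.7% and 11.7% in theirs, so the stem cell libraries disagreed with each other. A shore of Dlx3 (chr11:95121863-95123864), a gene of skin and placenta, went from 35.2% and 31.6% to 19.0% and 16.5% (-15.6 points, adjusted p 0.0004). It was higher in stem cells, with 59.2% and 40.6% in ESC and 52.5% and 42.6% in pESC libraries, and near E9.5 PGCs in PGCLCs, with 34.3% and 34.6% from ESCs and 29.5% and 30.8% from pESCs. The feature that rose was the Six3 shore, from 6.90% and 4.00% to 23.1% and 11.8% (12 points, adjusted p 0.0202). Its E12.5 libraries lay 11.3 points apart. On untransformed levels, in a fit of all 12 libraries and with a minimum of 20 points, 0 member features rose. Centring turned the members' split to 366 higher and 1 lower, and called 46.3% of all features, 72.8% of them higher.

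PGCLCs were set beside embryonic PGCs to see how near they came. A member feature below 10% in PGCs could not be called lower in PGCLCs. At E9.5, 7 of 45 exons, 9 of 45 introns, 20 of 179 shores and 1 of 40 promoters reached 10%. Against E9.5 PGCs, ESC-PGCLCs were lower at 6 of 466 member features, in 5 genes (1.29%, against 29.6% of all features), and higher at 1, the Lhx9 shore (0.215%, against 0.168%), by 22.3 points (adjusted p 0.00302). pESC-PGCLCs were lower at 12 features in 8 genes (2.58%, against 40.2%) and higher at 3, of Lhx9 and Emx2 (0.644%, against 0.127%). Of all islands 5.71% and 6.44% were lower in ESC- and pESC-PGCLCs, and of all shores 21.5% and 26.4%. The Lhx9 shore was higher by 34.0 points (adjusted p 0.00081), the Emx2 3' UTR by 20.5 points (adjusted p 0.0153) and the Emx2 shore, at 19.4% and 18.0%, by 16.6 points (adjusted p 0.000752). Pax5 exons were lower, with 53.4% and 52.6% in PGCLCs from ESCs (-20.04 points, adjusted p 0.00139) and 48.0% and 47.8% in those from pESCs (-25.1 points, adjusted p 0.000396). Centring turned these splits to 247 higher and 0 lower, and 360 higher and 1 lower. Over all features, centring called 21.6% and 35.7%, of which 79.4% and 76.3% were higher.

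Against E12.5 PGCs no member feature was lower in ESC-PGCLCs (0.523% of all features were) or in pESC-PGCLCs (0.287%). Few could be, since at E12.5 only 5 of 45 exons, 6 of 45 introns, 4 of 21 3' UTRs and 9 of 179 shores reached 10%. Of 40 promoters and 95 islands, 0 did. In ESC-PGCLCs 8 features in 8 genes were higher (1.72%, against 22.2%), and in pESC-PGCLCs 8 features in 6 genes (1.72%, against 6.81%). Of all islands 1.97% and 0.536% were higher in ESC- and pESC-PGCLCs, and of all shores 11.5% and 3.4%. The Lhx9 shore was higher by 23.5 points in ESC-PGCLCs (adjusted p 0.00415) and by 35.3 points in pESC-PGCLCs (adjusted p 0.0121). The Emx2 3' UTR was 22.7 points higher in pESC-PGCLCs (adjusted p 0.0264). The Lhx4 exons were 16.4 points and the Dlx3 shore 16.7 points higher in ESC-PGCLCs. The count for pESC-PGCLCs was 1 without E12.5 replicate 1, 3 without E12.5 replicate 2, 5 without ESC-PGCLC replicate 1, 0 without pESC-PGCLC replicate 1 and 1 without pESC-PGCLC replicate 2. Calls over all features also became fewer in each of these fits. After centring, 3 member features were higher and 2 lower in ESC-PGCLCs, and 2 were higher in pESC-PGCLCs. That setting called 5.97% and 0.828% of all features.

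Between pESC-PGCLCs and ESC-PGCLCs none of 466 features was called by limma (0.0948% of all features were), and 32 had an unadjusted p below 0.05. The widest differences were at the Emx2 3' UTR, 14.2 points higher in pESC-PGCLCs (log2 odds 1.38, SE 0.65, adjusted p 0.308), the Lhx4 exons, 11.8 points lower (log2 odds -1.12, SE 0.16, adjusted p 0.0866), and the Lhx9 shore, 11.8 points higher (log2 odds 0.77, SE 0.42, adjusted p 0.368). In each of these 3, picked for their width, the libraries of the 2 origins did not overlap. Neither this nor the unadjusted p was counted over all features. The interaction test, of whether the change on induction differed between the 2 lines, called no member feature by limma (0.0365% of all features were called, and 6 member features had an unadjusted p below 0.05). For the Emx2 3' UTR this difference of changes was 13.3 points (log2 odds 1.38, SE 0.76, adjusted p 1.0). Between the 2 kinds of PGCLC 3 member features (0.644%) were called on untransformed levels, against 1.29% of all features, and 1 (0.215%) with an offset of 0.1, against 0.974%.

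The shores were grouped by their distance from the gene start. Of the 179 shores, 38 lay upstream of the gene start, with a median of 4.69% in ESCs and 3.29% in E9.5 PGCs, and 3 of them were at least 10 points lower in E9.5 PGCs. Of 40 shores up to 2 kb downstream, 4 were, with medians of 4.56% and 3.08%. Between 2 and 5 kb downstream it was 12 of 49, with medians of 6.53% and 3.88%, and beyond 5 kb 11 of 52, with 7.67% and 3.73%. The Lhx9, Irx4 and Irx5 shores belong to the last group. Some shores of close islands overlap, and the 179 shores hold 174 distinct sets of values.

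**Figure D5:**
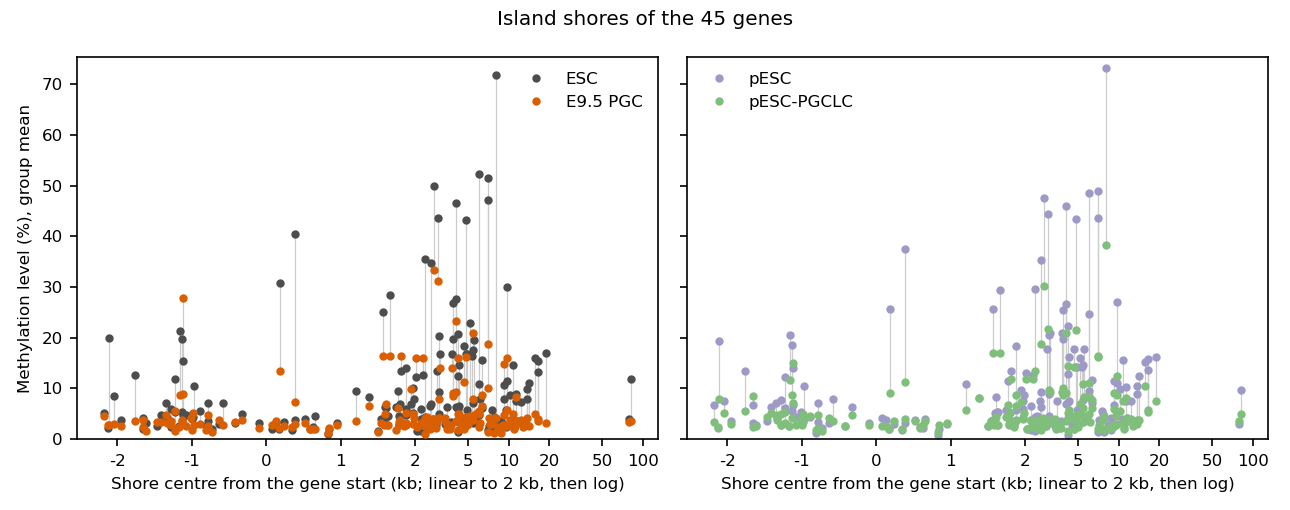
Group mean methylation level in percent (vertical axis) of the 179 member shores against the distance of the shore's centre from the gene start in kb (horizontal axis, linear to 2 kb and logarithmic beyond), for ESCs and E9.5 PGCs (left) and pESCs and pESC-PGCLCs (right); grey lines join the 2 values of a shore. Most long lines lie beyond 2 kb downstream, with the Lhx9 shore the tallest in both panels.

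Shores of related genes fell as well. Among 80 other homeobox and Pax genes outside the Hox clusters, 31 of 239 shores were called lower and 8 higher in E9.5 PGCs than in ESCs, with a median difference of -0.782 points, and among 39 Hox genes 14 of 107 were lower and 0 higher, with a median of -0.864 points. On induction of PGCLCs from ESCs, 25 of 238 and 11 of 108 shores of these lists fell, and from pESCs 23 and 11. Whether the lists differ from the 45 genes was not tested. No feature was called in any comparison in Dlx1, Dlx2, Dlx6, En1, Evx1, Evx2, Gsc, Irx1, Irx2, Irx6, Lhx5, Lhx6, Lhx8, Msx1, Msx2, Nkx2-1, Nkx2-2, Nkx6-1, Nkx6-2, Pax3 or Six6.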

How the data were processed

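RRBS levels of 12 libraries (6 groups of 2, from the sample titles) were used. The authors aligned bisulfite reads with Bismark 0.16.3 and Bowtie2 to mm10, per the labels and methods. They deposited for each library the level of every feature as a fraction, methylated over all CG calls, corrected for incomplete conversion per the methods. Read counts, a coverage minimum and the promoter definition are not given in the sources used here, so the depth per sample is unknown and no interval was computed.

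Gene identifiers were matched to GENCODE M21 (30041 of 30073). Islands and shores were assigned to a gene within its span and 2000 bp either side. Island starts were shifted by 1 base, so that positions count from 1. Sequences came from RefSeq, GRCm38.p6. Log2 odds, log2((level + 0.01)/(1 - level + 0.01)), were fitted with limma 3.58.1 (R 4.3.3) over features measured in all libraries of a fit, adjusted by Benjamini-Hochberg over all features tested. The fits held ESC and pESC, or ESC and E9.5 PGC, or all PGC and PGCLC groups, or both stem cell lines with both PGCLC groups. A call needed an adjusted p below 0.05, means at least 10 points apart and matching signs. The methods call replicates biological without tying libraries to cultures or pools, so the p-values measure the spread between 2 libraries, which may be technical. Fits were tested on simulated data: with 200 features shifted, 52 of 67 shifted by 30 points were called for E12.5 against E9.5 PGCs (137202 features), 21 of 67 for ESC-PGCLCs against ESCs (136848) and none of 67 for pESCs against ESCs (148012) or E9.5 PGCs against ESCs (138776). With many features shifted, 91.0% of those shifted by 30 points were called for the last.

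The genes, comparison lists and tests were chosen with earlier results of these data known. Values in every library, or their range, are given for promoters whose highest group mean is at least 20%, up to 6 called features a comparison with the largest difference and no overlap of replicates, the 3 widest ranges each in exons, introns and shores, and the 3 lowest promoters. Other features named were chosen after their values were seen. One result within this rule is not reported here.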

Additional observations from a re-analysis of the deposited data

How the results depend on the processing

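The deposited levels hold no coverage, so no alternative coverage minimum could be tried. Centring on the library median gave 367 calls of member features for E12.5 against E9.5 PGCs, 247 and 361 for ESC- and pESC-PGCLCs against E9.5 PGCs, 5 and 2 against E12.5 PGCs, 421 and 305 against their stem cells and 451 for E9.5 PGCs against ESCs. A minimum of 20 points left, in this order, 5, 2, 4, 1, 2, 16, 11 and 18. Over all features it left 29.5%, 5.59%, 13.9%, 3.83%, 0.910%, 9.21%, 5.92% and 24.4%. A fit of all 12 libraries left 5 and 2 for the PGCLCs against E12.5 PGCs, with 9.97% and 0.464% of all features called. An offset of 0.1 gave 19 and 12 for the PGCLCs against their stem cells and 1 between the PGCLCs, and untransformed levels gave 13, 10 and 3, and 10 for E9.5 PGCs against ESCs. For the PGCLCs against their stem cells, the offset called 14.8% and 9.85% of all features and untransformed levels 13.8% and 9.38%. With 1 library left out, the counts ran from 20 to 24 for E12.5 against E9.5 PGCs, 5 to 9 and 12 to 16 for ESC- and pESC-PGCLCs against E9.5 PGCs, 6 to 9 and 0 to 6 against E12.5 PGCs, 11 to 53 and 2 to 29 against their stem cells and 28 to 61 for E9.5 PGCs against ESCs, and stayed at 0 for pESCs against ESCs, between the PGCLCs and for the interaction. The median differences from the promoter ran from 0.139 to 0.220 points (exons), 1.00 to 1.15 (introns) and 1.40 to 1.54 (shores). As means over genes they were 3.20, 3.97 and 3.08 points, and with shores within 4 kb of the start only the last was 0.940. Of the 81 calls at named features, 12 held in every setting and 7 turned direction, all on centring, where their values became 1.83 points (Pax6 exons, E12.5 against E9.5 PGCs), -1.29 (Pax8 exons, ESC-PGCLCs against E9.5 PGCs), 1.76 (Pax2 introns, pESC-PGCLCs against E9.5 PGCs), 4.54 (Pax8 exons, ESC-PGCLCs against ESCs) and, for E9.5 PGCs against ESCs, 4.21 (Pax8 exons), -3.49 (Pax6 3' UTR) and 5.14 (Pax7 3' UTR), direction being judged on log odds. Libraries share replicate numbers only: deviations of same-numbered libraries correlated at 0.432 for ESCs and pESCs, 0.139 for E9.5 PGCs and ESC-PGCLCs and from -0.0573 to 0.0665 otherwise. With a replicate block the counts were 24 for E12.5 against E9.5 PGCs, 7 for pESC-PGCLCs against E12.5 PGCs, where the call of the Irx4 3' UTR was lost (11.4 points, adjusted p 0.0587), 29 and 21 for the PGCLCs against their stem cells and 45 for E9.5 PGCs against ESCs. The cause of these shifts was not tested, and the depth, which is unknown, limits the precision of each level.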

Other observations

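A few features of the 45 genes stood out in a single library and are given as values, chosen after they were seen. The Six3 promoter had 22.8% in pESC replicate 1 and 3.03% in pESC replicate 2, and a Six3 shore (chr17:85618636-85620637) had 39.7% and 9.68% in the same libraries. The Evx1 promoter, which had a level in pESC replicate 1 only, had 12%. Irx6 exons had 13.1% in pESC replicate 1 and 2.40% in pESC replicate 2. Among promoters, Irx4 was higher in E9.5 PGCs, with 16.7% and 11.9%, than in the other libraries, which ran from 5.75% to 11.2%.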
